A study of Mus musculus with 9 samples.

Results

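Integrins, laminins and other extracellular matrix genes were examined in cells sorted from mouse forelimb buds at E10.5, a stage of mid-gestation. The module was a given list of 41 genes: integrin alpha and beta chains, components and receptors of the basement membrane, collagens, and other matrix proteins. A gene was measured by the probe sets that the array annotation ties to its symbol alone, and was represented by the brightest of these over all arrays. In this way 40 of the 41 genes were measured, on 103 probe sets, of 18193 genes on the arrays, and Itga11 was not listed in the annotation used. Affymetrix Mouse430_2 arrays were hybridised with amplified RNA, 3 arrays for each of 3 groups. PAX3-FKHR GFP+ cells came from Pax3PAX3-FKHR/GFP embryos, in which one Pax3 allele encodes PAX3-FKHR, the fusion protein of alveolar rhabdomyosarcoma, switched on by Cre under the ubiquitous PGK promoter, and the other encodes GFP. Control GFP+ cells came from Pax3GFP/+ embryos, which keep a wild-type Pax3 allele beside the GFP allele. PAX3-FKHR GFP+ cells therefore differ from the controls both by the fusion and by the absence of a wild-type Pax3 allele, and the effects of these cannot be told apart here. GFP- cells were the cells of the bud without fluorescence. The sample labels give no genotype for them. The study describes the comparison as one within Pax3GFP/+ embryos, and a Pax3+/+ group is named only where its hybridisations are listed. Per the methods, the embryos were on a mixed C57BL6/DBA2 background, and limb buds of several embryos were pooled for each of the biological replicates.

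Integrins are receptors made of an alpha and a beta chain that hold cells to the surrounding matrix and signal from it. Laminins, nidogens, type IV collagen and perlecan build the basement membrane, the sheet that lies along epithelia and, later, around muscle, while fibrillar collagens, fibronectin, tenascin and versican fill the interstitial matrix of mesenchyme. Nephronectin, the product of Npnt, is a matrix ligand of the integrin that contains the alpha chain encoded by Itga8. Muscle progenitors that express Pax3 leave the somite and migrate through the matrix of the limb bud before they form muscle.

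The upstream sequences of the genes around which the results turn are shown, because the fusion protein is a transcription factor that keeps the DNA-binding domains of PAX3. For each, the 250 bases before a RefSeq transcription start (assembly GRCm38.p6) are given 5′ to 3′ on the strand of the gene. Capitals mark GTCAC, the core of sites bound by paired domains, and ATTA, the core of sites bound by homeodomains, searched on both strands, so that their complements GTGAC and TAAT are also in capitals.
Npnt, chr3:132950292-132950541, minus strand: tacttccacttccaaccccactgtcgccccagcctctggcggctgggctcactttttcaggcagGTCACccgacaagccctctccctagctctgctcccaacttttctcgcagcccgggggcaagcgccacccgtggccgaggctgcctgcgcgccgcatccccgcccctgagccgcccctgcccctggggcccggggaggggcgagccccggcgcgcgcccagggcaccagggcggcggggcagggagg
Itga8, chr2:12301945-12302194, minus strand: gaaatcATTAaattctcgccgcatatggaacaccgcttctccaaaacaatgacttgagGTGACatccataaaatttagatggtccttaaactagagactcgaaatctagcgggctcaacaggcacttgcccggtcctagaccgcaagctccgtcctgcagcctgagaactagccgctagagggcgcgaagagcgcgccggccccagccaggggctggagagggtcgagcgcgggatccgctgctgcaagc
Lama2, chr10:27616943-27617192, minus strand: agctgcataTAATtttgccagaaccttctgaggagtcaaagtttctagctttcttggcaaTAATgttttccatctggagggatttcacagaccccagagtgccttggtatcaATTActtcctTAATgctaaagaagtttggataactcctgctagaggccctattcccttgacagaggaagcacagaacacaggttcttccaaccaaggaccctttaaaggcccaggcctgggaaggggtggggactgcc
The Npnt window shown held 1 GTCAC and no ATTA match, that of Itga8 held 1 of each, and that of Lama2 held 4 ATTA matches and no GTCAC. A further Npnt window, chr3:132949815-132950064, is not shown and also held 1 GTCAC and no ATTA match. Over 32851 such windows of 27025 genes, 39.8% held GTCAC and 54.9% held ATTA on either strand. Of the 34 windows found for 29 of the listed genes, 11 held GTCAC and 12 held ATTA. These letters are common, and a match in them is a description of the sequence, not a binding site.

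Values are log2 RMA values, so that a difference of 1 is a doubling, and a value is compared between arrays for the same probe set but not between genes. A call needed both an adjusted p under 0.05 (limma fit of all 9 arrays, Benjamini-Hochberg over 45037 probe sets) and a change of 0.5 or more on the log2 scale in either direction (1.414-fold). The sorted populations were checked against marker lists. All 14 measured genes of myogenic progenitors, among them Lbx1, Met and Myf5, were called higher in control GFP+ than in GFP- cells, and 11 of 15 limb mesenchyme genes were called lower. The GFP+ sort also held neural crest genes, 5 of 8 of which, among them Sox10, were called higher there than in GFP- cells, while 2 (Tfap2a and Tfap2b) were called lower. Of 7 neuronal genes, 4 were also called higher in control GFP+ cells and 0 lower, and of 7 sclerotome genes 2 higher and 2 lower. Of 16 endothelial genes 0 were called, with all 16 fold changes above 0. Of 18 limb ectoderm genes 4 were called lower, and of 13 blood and macrophage genes 1. Between PAX3-FKHR and control GFP+ cells, 0 of the 15 limb mesenchyme, 0 of 16 endothelial and 0 of 8 neural crest genes were called, with 3, 2 and 2 of them lower and 0, 0 and 1 higher at an unadjusted p under 0.05. Of the other marker lists, 1 of 18 limb ectoderm genes was called higher with PAX3-FKHR (Fgf8, log2 fold change 1.14) and 1 of 7 sclerotome genes lower (Foxc2, -1.66). Of the 14 myogenic progenitor genes, Pax7 was called higher (1.45) and Pax3 lower (-2.59), and the 7 neuronal and 13 blood and macrophage genes had 0 calls, with 1 and 0 higher and 1 and 0 lower at an unadjusted p under 0.05. Pax3 itself, on a probe set of the mouse gene, ranged from 6.83 to 7.33 in PAX3-FKHR GFP+ cells, from 8.94 to 10.22 in control GFP+ cells and from 4.77 to 5.17 in GFP- cells. The 3 groups did not overlap in Pax3. Control GFP+ replicate 3 stood apart from the other arrays, with an array weight of 0.236 where the others ran from 0.604 to 2.69, and calls that rest on it are given with and without it. Of the 40 genes, 32 lay above the median of all values (5.11) on all 9 arrays and 6 lay below it on all of them: Itga1, Itga2, Itgb6, Itgb8, Lama3 and Vtn. No present or absent calls were used, so whether these 6 genes were expressed at all was not tested.

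Across the module, 13 genes were called in at least one of the comparisons and 27 in none. The same count was not taken over all genes, so the 13 are a listing and not a result about the module. With PAX3-FKHR, 1 of the 40 genes was called higher than in control GFP+ cells, where 0.61% of all genes were, and 0 were called lower, where 0.203% of all genes were. Npnt was the gene called. At an unadjusted p under 0.05, 4 members were higher and 4 lower, where 705 and 817 of all 18193 genes were. The local pooled error test used in the study, rebuilt from its description, called 3 higher (Npnt, Lama2 and Tnc) and 0 lower. The share of all genes called by that test was not taken, so these 3 have no baseline. All PAX3-FKHR arrays lay above all control GFP+ arrays for 5 members, where 5.42% of all genes did, and below them for 5 others, where 8.88% did. The median log2 fold change of the members was -0.09, beside -0.03 over all genes.

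**Figure D1:**
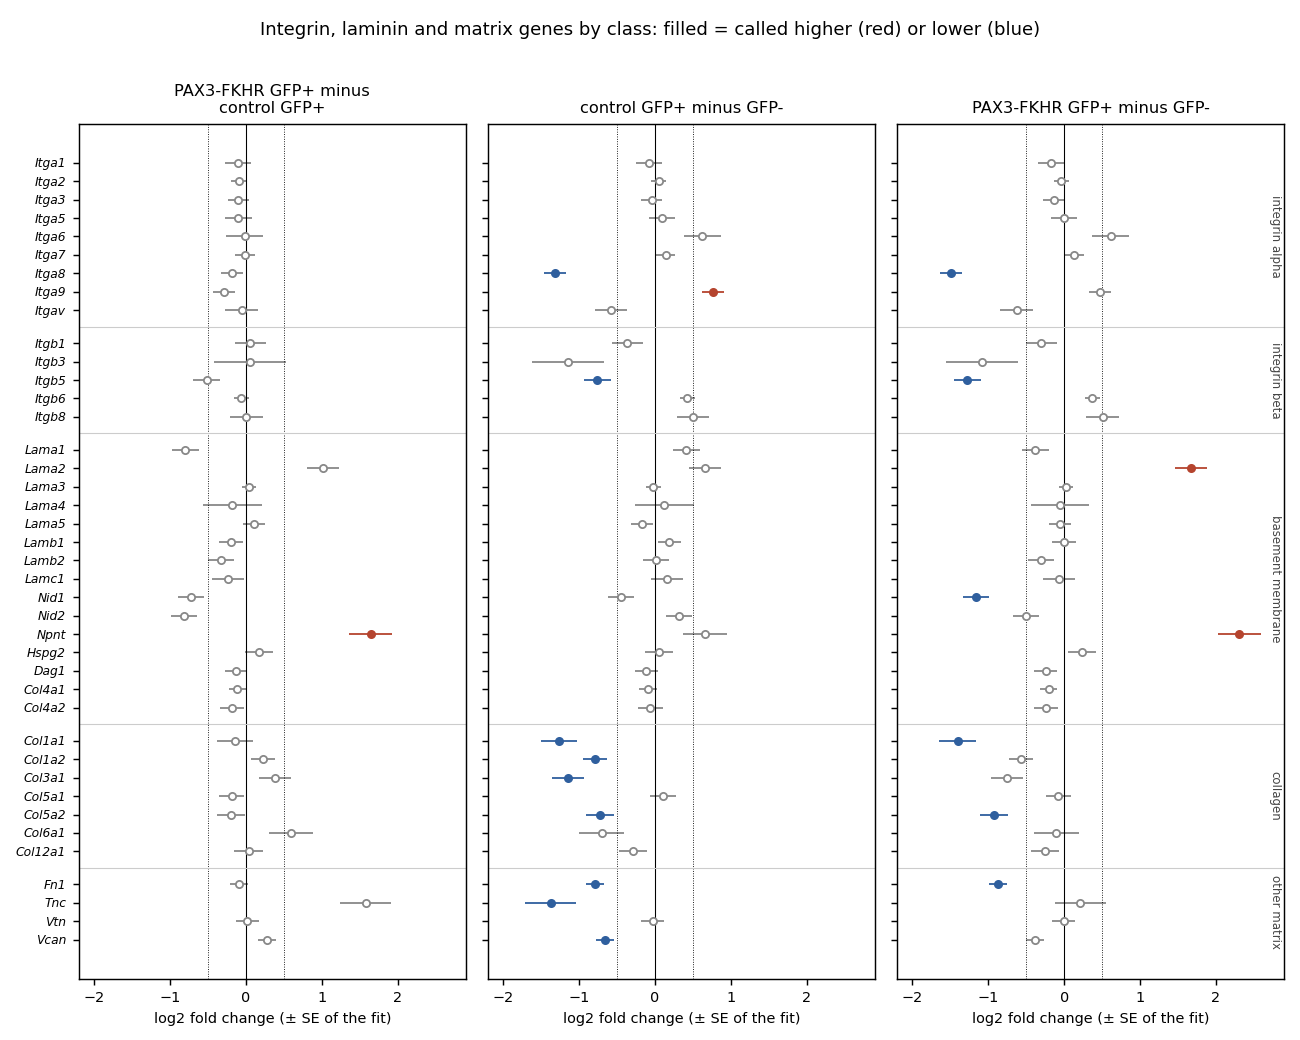
Log2 fold change of each of the 40 genes on its brightest probe set, with the standard error of the fit, in the 3 comparisons, ordered by class. Filled points were called, and dotted lines mark a log2 fold change of 0.5 in either direction. Npnt is the called point in the left panel, and the 9 blue points of the middle panel are Itga8, Itgb5, 4 collagen genes, Fn1, Tnc and Vcan.

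Npnt was higher with PAX3-FKHR. Its brightest probe set read 9.34, 9.88 and 9.79 in PAX3-FKHR GFP+ cells, 8.37, 8.33 and 7.37 in control GFP+ cells, and 7.20, 7.10 and 7.79 in GFP- cells. The fusion group lay above both other groups on every array, while control replicate 3 fell among the GFP- arrays. The log2 fold change over control GFP+ cells was 1.64 (standard error 0.29, adjusted p = 0.0384), which is 3.12-fold, and over GFP- cells it was 2.31 (adjusted p = 9.94e-04). The first of these calls is close to the threshold: it was lost in each fit that dropped 1 of the 6 PAX3-FKHR and control arrays (adjusted p between 0.0540 and 0.176) and with the replicate number as a block over 9 arrays (adjusted p = 0.0902), but not with the block over the 6 arrays compared (adjusted p = 0.0239). Without control GFP+ replicate 3 the log2 fold change was 1.32 (adjusted p = 0.0581).

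A second Npnt probe set was less variable. It read 8.20, 8.38 and 8.53 in PAX3-FKHR GFP+ cells, 6.95, 6.70 and 6.59 in control GFP+ cells, and 5.59, 5.81 and 5.89 in GFP- cells, so that the 3 groups formed separate steps without overlap. It was higher with PAX3-FKHR by 1.62 on the log2 scale (standard error 0.16, adjusted p = 0.00141). Its call held in all 6 fits with an array left out (adjusted p at most 0.0117) and under both forms of the replicate block (adjusted p = 0.00631 and 0.00766). In control GFP+ cells it was already higher than in GFP- cells, by 0.98 (adjusted p = 0.00532), while on the brightest probe set this difference was not called (0.66, adjusted p = 0.216). The other 3 Npnt probe sets, which read between 3.98 and 5.71 on all arrays, were not called in any comparison, with log2 fold changes with PAX3-FKHR of 0.46, 0.02 and 0.24. Both called probe sets are in a table that the study drew up from these same arrays, and their place in it is no independent support for the direction.

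**Figure D2:**
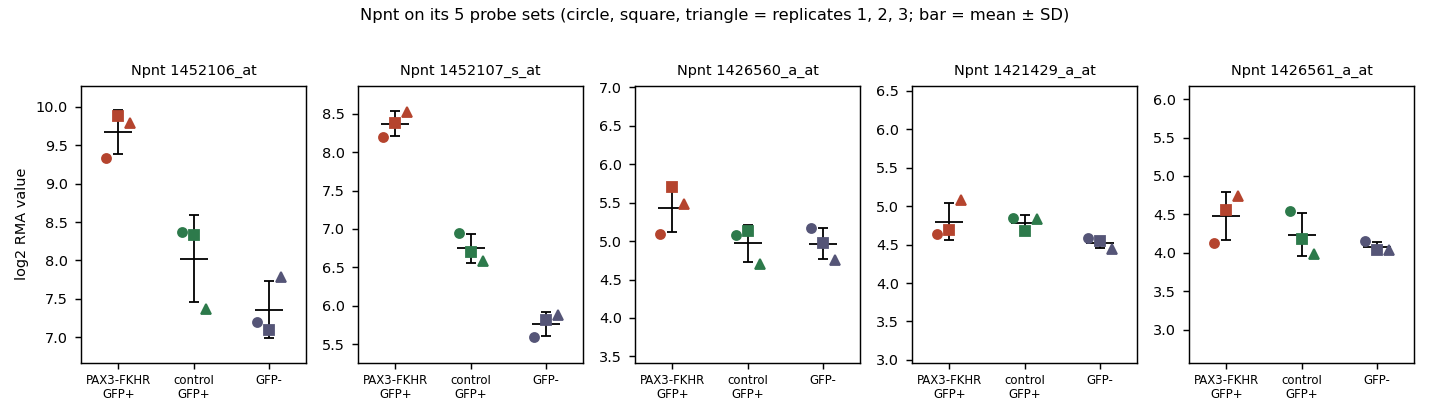
Log2 RMA values of Npnt on each of its 5 probe sets, by group, with the replicates as separate symbols and the mean ± SD (n = 3). On the first 2 panels all PAX3-FKHR GFP+ arrays lie above all others, and on the other 3, which read below 6, they overlap the control GFP+ arrays. Each panel has its own range on the vertical axis.

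Opposite to the second Npnt probe set, Itga8, which encodes the alpha chain of the nephronectin receptor, was lower in GFP+ than in GFP- cells. It read 7.35, 7.35 and 7.43 in GFP- cells, 6.02, 6.05 and 6.12 in control GFP+ cells, and 6.16, 5.80 and 5.70 in PAX3-FKHR GFP+ cells. Both GFP+ groups lay more than 1 log2 unit below every GFP- array. Against GFP- cells, Itga8 was lower by -1.31 in control GFP+ cells (standard error 0.14, adjusted p = 7.34e-04) and by -1.49 with PAX3-FKHR (adjusted p = 2.10e-04), while the fusion and control groups overlapped (log2 fold change -0.17, adjusted p = 0.828). A dim second probe set of Itga8 was not called.

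The laminin chains of the basement membrane did not move together. Lama2, the laminin alpha chain of muscle basement membrane, read 8.45, 8.70 and 8.21 with PAX3-FKHR, 7.39, 7.76 and 7.17 in control GFP+ cells, and 7.02, 6.88 and 6.46 in GFP- cells. These are 3 steps without overlap, in the same order as on the second Npnt probe set. Over GFP- cells, Lama2 was higher with PAX3-FKHR by 1.67 on the log2 scale (standard error 0.21, adjusted p = 0.00104), which is 3.18-fold. Over control GFP+ cells it was at 1.01 (standard error 0.21), which missed the threshold (adjusted p = 0.0880) but passed it with the replicate number as a block (adjusted p = 0.0371 over 9 arrays and 0.0196 over 6). With those 6 arrays and no block it was not called (adjusted p = 0.167). Lama2 was called in 0 of the 6 fits with an array left out (adjusted p between 0.0677 and 0.342). Without control GFP+ replicate 3 its log2 fold change was 0.88 (adjusted p = 0.224). Lama1, a laminin chain of early embryonic basement membranes, was lowest with PAX3-FKHR, at 6.11, 5.74 and 5.84, against 6.38, 6.69 and 7.002 in control GFP+ cells and 6.35, 6.34 and 6.14 in GFP- cells. All of its PAX3-FKHR arrays lay below all other arrays, but the difference from control GFP+ cells, -0.79 (standard error 0.18), was not called (adjusted p = 0.127, and 0.160 with the block over 6 arrays).

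The nidogens, which link laminin to type IV collagen, also had their lowest values with PAX3-FKHR. Nid2 read 7.17, 7.12 and 6.94 there, 7.74, 7.73 and 8.19 in control GFP+ cells, and 7.50, 7.78 and 7.44 in GFP- cells, a log2 fold change from control of -0.81 (standard error 0.17) that was not called (adjusted p = 0.0924). Nid1 read 8.62, 8.81 and 8.21 with PAX3-FKHR, 9.03, 9.33 and 9.43 in control GFP+ cells, and 9.70, 9.68 and 9.75 in GFP- cells. On this probe set, its brightest, the 3 groups of Nid1 did not overlap. Nid1 was called lower with PAX3-FKHR than in GFP- cells, by -1.16 (adjusted p = 0.00278), but not lower than in control GFP+ cells (-0.72, adjusted p = 0.169). A dim probe set of Nid1 was called lower in both GFP+ groups than in GFP- cells (-1.35 and -1.49). The remaining, brighter Nid1 probe set was called in no comparison. On it, both GFP+ groups overlapped the GFP- arrays (-0.17, adjusted p = 0.768, for control and -0.775, adjusted p = 0.159, with PAX3-FKHR).

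**Figure D3:**
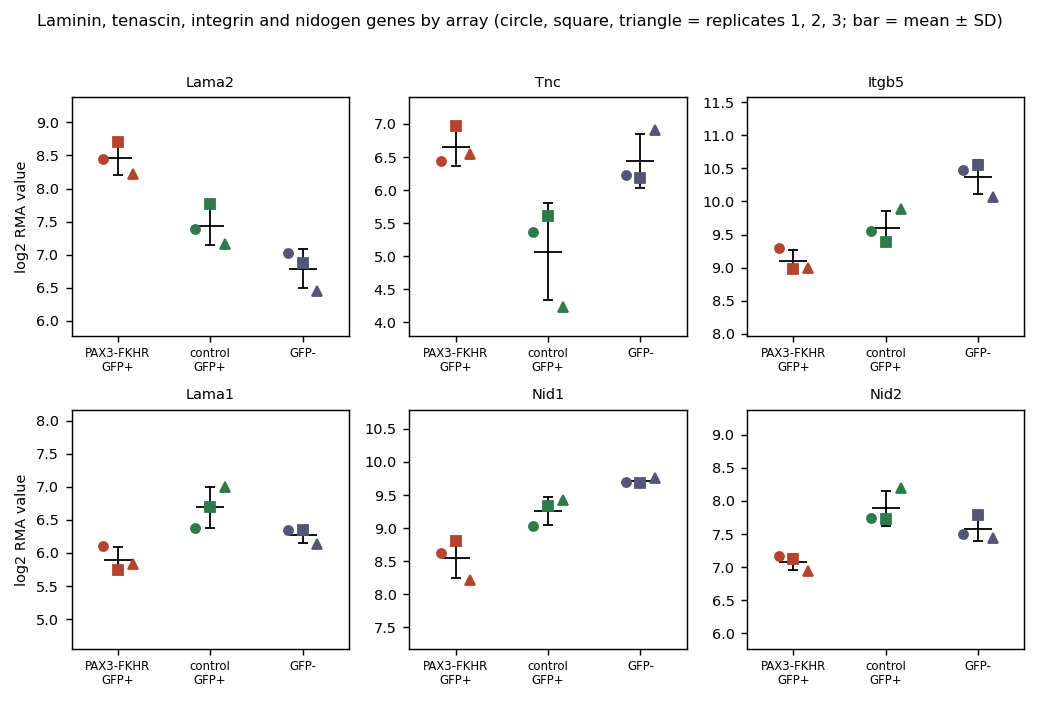
Log2 RMA values of Lama2, Tnc, Itgb5, Lama1, Nid1 and Nid2 by group, with replicates as separate symbols and the mean ± SD (n = 3). PAX3-FKHR GFP+ arrays lie above the control GFP+ arrays for Lama2 and Tnc and below them for the other 4 genes. Each panel has its own range on the vertical axis.

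The other basement membrane genes were close to level between the groups. Lama3, Lama4, Lama5, Lamb1, Lamb2, Lamc1, Hspg2 (perlecan), Dag1 (dystroglycan, a laminin receptor), Col4a1 and Col4a2 had log2 fold changes with PAX3-FKHR between -0.33 and 0.18 and were called in no comparison. Of the 15 genes of the class, 0 were called in either direction between control GFP+ and GFP- cells, with 3 higher and 1 lower at an unadjusted p under 0.05. Over all 18193 genes, 2414 were higher and 1140 lower at that p. The local pooled error test called Npnt higher in control GFP+ than in GFP- cells (adjusted p = 0.0114). With PAX3-FKHR against GFP- cells, Npnt and Lama2 were called higher and Nid1 lower. Lama4, a laminin chain of vessels, was highest on control GFP+ replicate 2 (8.65), the array with the highest mean of endothelial markers (0.89 above the mean of all arrays, where the others ran from -0.71 to 0.22). Whether endothelial RNA had a part in the value of Lama4 was not tested.

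Tenascin C, encoded by Tnc, is a matrix glycoprotein of migrating and remodelling tissue. Its gene read 6.44, 6.97 and 6.55 with PAX3-FKHR, 5.37, 5.60 and 4.23 in control GFP+ cells, and 6.23, 6.18 and 6.91 in GFP- cells. The control GFP+ arrays lay below all others, and those of the fusion and GFP- groups overlapped. In control GFP+ cells Tnc was called lower than in GFP- cells, by -1.37 (standard error 0.34, adjusted p = 0.0388), a call that held in 1 of the 6 fits with an array left out. Its log2 fold change with PAX3-FKHR over control was 1.58 (standard error 0.34, adjusted p = 0.100), and it was called with the replicate block over 6 arrays (adjusted p = 0.0218) but not over 9 (adjusted p = 0.155). Without control GFP+ replicate 3 the values were 1.16 (adjusted p = 0.121) with PAX3-FKHR over control and -0.95 (adjusted p = 0.0509) for control against GFP- cells. The second probe set of Tnc, below 3.1 on every array, was not called.

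The comparison of control GFP+ with GFP- cells asks how the matrix genes of the GFP+ sort, which held the muscle progenitors, differ from those of the rest of the bud. Of the 40 genes, 1 was called higher and 9 lower in control GFP+ cells, where 2.79% of all genes were called higher and 1.93% lower. All control GFP+ arrays lay above all GFP- arrays for 7 members and below them for 11, where 17.2% and 6.96% of all genes did so. The median of the members was -0.05 and that of all genes 0.08. The lower genes were Itga8, Itgb5, Col1a1, Col1a2, Col3a1, Col5a2, Fn1, Tnc and Vcan, with log2 fold changes from -0.66 to -1.37. Without GFP- replicate 1 the number lower was 5, and without control GFP+ replicate 3 the number higher was 2, with Npnt beside Itga9. Limb mesenchyme markers moved with them: the list's mean lay between 0.95 and 1.25 above the mean of all arrays in GFP- cells and between 0.40 and 0.82 below it in GFP+ cells, and the part of mesenchymal cells in these differences was not tested. In sorted bulk RNA, fewer cells of a type and less RNA per cell cannot be told apart.

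Of the 7 collagens, 4 were called lower in control GFP+ cells, with a class median of -0.72, and of the 4 other matrix genes 3 were, also with a median of -0.72. Col1a1, a chain of type I collagen, read 6.98, 7.16 and 7.24 in control GFP+ cells and 8.56, 8.84 and 7.76 in GFP- cells (log2 fold change -1.26, standard error 0.24, adjusted p = 0.0125), a call lost without GFP- replicate 1 (adjusted p = 0.0523). Its partner chain Col1a2 read 11.53, 11.29 and 11.13 against 12.44, 12.05 and 11.83 (-0.79, standard error 0.16, adjusted p = 0.0150), and was called lower on all 3 of its probe sets. Both type I chains thus lay lower in control GFP+ cells, with no array overlapping, but the second Col1a1 probe set was not called (-0.54, adjusted p = 0.116). Col3a1, the chain of type III collagen, read 11.75, 11.84 and 10.91 in control GFP+ cells and 12.70, 12.69 and 12.54 in GFP- cells (-1.14, standard error 0.21, adjusted p = 0.0107). Col5a2, a type V chain that lies next to Col3a1 in the genome, read 9.64, 9.79 and 9.56 against 10.40, 10.60 and 10.16 (-0.72, standard error 0.18, adjusted p = 0.0449), but was called in 0 of the 6 fits with an array left out (adjusted p of 0.0524 or more). Its second probe set was not called (-0.86, adjusted p = 0.139). Col5a1, the other type V chain measured, was not called (0.11). Col12a1 was not called on its brightest probe set (-0.29) but was lower on another (-1.51, adjusted p = 0.00567). Col6a1 read 5.17 on control replicate 3 and from 6.17 to 6.99 on all the other arrays, and was not called.

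With PAX3-FKHR, none of the 7 collagens was called against control GFP+ cells, and 0 passed an unadjusted p under 0.05. Their log2 fold changes ran from -0.20 to 0.60, the highest that of Col6a1, which was 0.24 without control GFP+ replicate 3. The PAX3-FKHR values of Col1a1 (6.94, 7.03 and 6.97) and Col5a2 (9.74, 9.58 and 9.07) were called lower than those of GFP- cells, by -1.40 and -0.92. The second probe set of Col1a1 was also called lower (-0.86, adjusted p = 0.0167), but that of Col5a2 was not called (-0.68, adjusted p = 0.251). On their brightest probe sets, Col1a2 (11.47, 11.61 and 11.55) and Col3a1 (12.06, 11.87 and 11.73) lay below all GFP- arrays but missed the threshold (adjusted p = 0.0569 and 0.0583). The other probe sets of Col1a2 were called lower with PAX3-FKHR than in GFP- cells (-0.90, adjusted p = 0.0386, and -1.64, adjusted p = 0.00437).

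Fibronectin, encoded by Fn1, is a main substrate of integrins in mesenchyme. It read 10.54, 10.64 and 10.58 in control GFP+ cells, 10.62, 10.35 and 10.52 with PAX3-FKHR, and 11.45, 11.48 and 11.18 in GFP- cells. The GFP+ groups overlapped each other and lay below GFP- cells, by -0.78 in control (standard error 0.12, adjusted p = 0.00429) and by -0.87 with PAX3-FKHR (adjusted p = 0.00165). Versican, the large proteoglycan encoded by Vcan, read 10.57, 10.73 and 10.60 in control GFP+ cells and 11.35, 11.41 and 11.12 in GFP- cells (-0.66, standard error 0.12, adjusted p = 0.00987), with 3 of its 8 probe sets called lower. With PAX3-FKHR, Vcan read 11.07, 10.89 and 10.78, between the other groups and called against neither. Vtn, which encodes vitronectin, ranged from 3.98 to 4.47 over all arrays with no difference called.

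**Figure D4:**
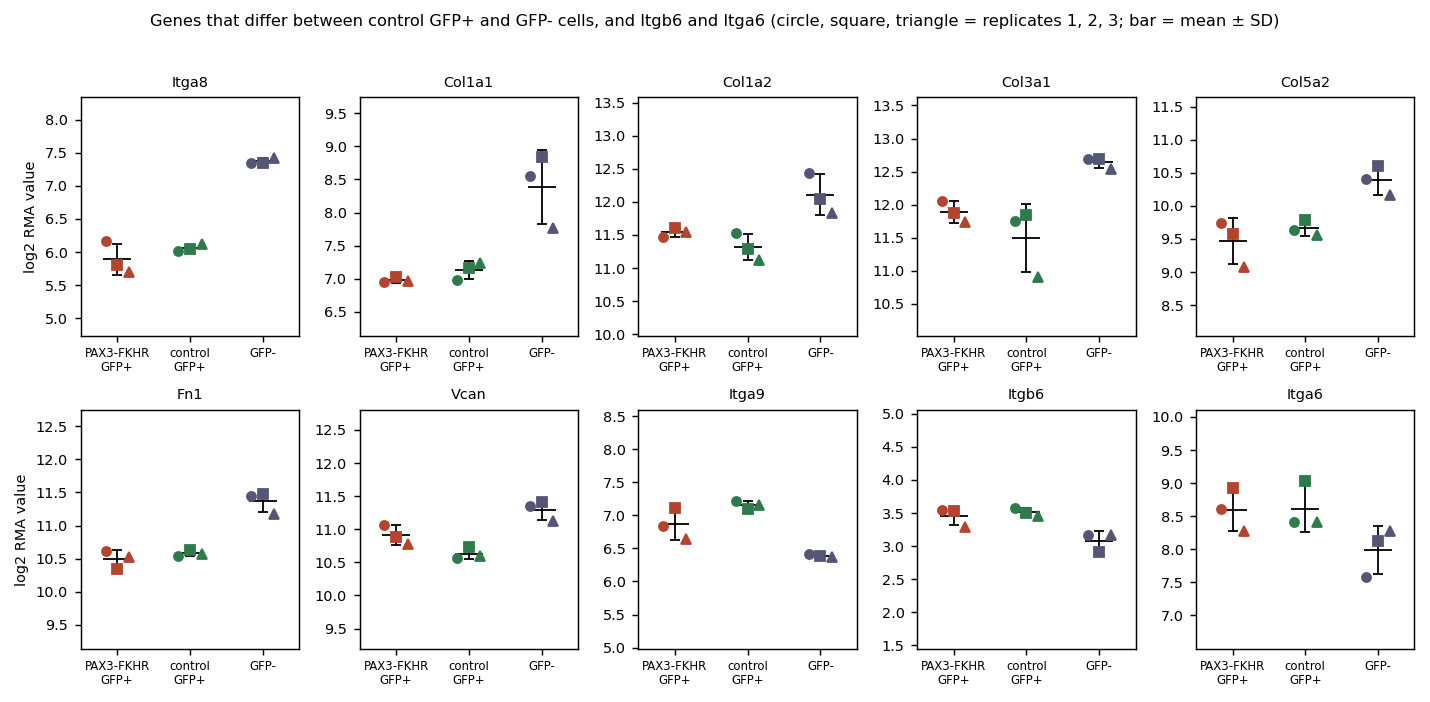
Log2 RMA values by group of 7 genes called lower and 1 called higher (Itga9) in control GFP+ cells relative to GFP- cells, and of Itgb6 and Itga6, which were not called, with replicates as separate symbols and the mean ± SD (n = 3). For Itga8, the collagens and Fn1, both GFP+ groups lie below every GFP- array. Each panel has its own range on the vertical axis.

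Among the integrin chains, none of the 9 alpha and 5 beta chains measured was called with PAX3-FKHR against control GFP+ cells. At an unadjusted p under 0.05 the counts were 0 for the alpha chains and 1 for the beta chains, which was Itgb5. Itgb5 encodes a partner of the alpha v chain in vitronectin receptors and read 9.29, 8.98 and 8.997 with PAX3-FKHR, 9.55, 9.38 and 9.88 in control GFP+ cells, and 10.48, 10.55 and 10.07 in GFP- cells. Its groups formed steps without overlap, with log2 fold changes of -0.51 between the fusion and control groups (adjusted p = 0.512), -0.76 between control GFP+ and GFP- cells (adjusted p = 0.0316) and -1.27 between the fusion and GFP- groups (adjusted p = 0.00195). The call between control GFP+ and GFP- cells held in 2 of 6 fits with an array left out. On that comparison, 3 of the 4 Itgb5 probe sets were called lower in control GFP+ cells. Itgav, the alpha v chain, was lower in both GFP+ groups by -0.58 and -0.63 without a call (adjusted p = 0.154 and 0.123).

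Itga9, whose product binds tenascin C, was the gene of the module called higher in control GFP+ than in GFP- cells. It read 7.21, 7.09 and 7.15 in control GFP+ cells, 6.41, 6.38 and 6.36 in GFP- cells, and 6.84, 7.11 and 6.64 with PAX3-FKHR. Control GFP+ cells exceeded GFP- cells by 0.77 (log2, standard error 0.15, adjusted p = 0.0124), and its other 2 probe sets were not called. The local pooled error test did not call Itga9 (adjusted p = 0.240) and had Npnt as its 1 higher gene. Itga6, a chain of laminin receptors, was above GFP- cells on all arrays of both GFP+ groups (0.63 and 0.61) but not called on its brightest probe set, while the other was called higher with PAX3-FKHR than in GFP- cells (1.47, adjusted p = 0.0311). Itga7, the laminin receptor chain of differentiated muscle, differed by 0.14 or less in every comparison.

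Itgb6 and Itgb8, beta chains of receptors that release active transforming growth factor beta, were dim. Itgb6 read 3.54, 3.52 and 3.29 with PAX3-FKHR, 3.58, 3.50 and 3.45 in control GFP+ cells and 3.17, 2.91 and 3.16 in GFP- cells. Its difference between control GFP+ and GFP- cells passed on p (adjusted p = 0.0330) but, at a log2 fold change of 0.43, not on size. Itgb8 read 4.63, 4.62 and 3.77 with PAX3-FKHR, 4.20, 4.62 and 4.17 in control GFP+ cells, and 3.75, 3.86 and 3.88 in GFP- cells. PAX3-FKHR replicate 3 fell among the GFP- arrays, and Itgb8 was called in no comparison (0.50 between control GFP+ and GFP- cells, adjusted p = 0.210). On their brightest probe sets, Itgb1, the common partner of most laminin and collagen receptors, and Itga1, Itga2, Itga3 and Itga5 differed by 0.36 or less in every comparison. Against GFP- cells, a dimmer probe set of Itga5 was at -0.56 in control GFP+ cells and -0.59 with PAX3-FKHR. A dimmer one of Itga3 was at -0.55 and -0.43, and neither was called. Itgb3, which is also a platelet integrin chain, read 6.94 on GFP- replicate 3 and from 4.12 to 5.50 elsewhere. That array had the highest mean of blood and macrophage markers (1.70 above the mean of all arrays), and their part in the value was not tested.

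The comparison of PAX3-FKHR GFP+ with GFP- cells shares its arrays with the comparisons above and is set beside them without adding support. Of the 40 genes, 2 were called higher (Npnt and Lama2) and 6 lower (Itga8, Itgb5, Nid1, Col1a1, Col5a2 and Fn1), where 3.9% of all genes were called higher and 2.79% lower. Of the 9 genes that were lower in control GFP+ cells, 5 were thus also called lower with PAX3-FKHR, and for 8 all PAX3-FKHR arrays lay below all GFP- arrays. Tnc was the exception, at 0.21 (adjusted p = 0.789). These 9 genes were picked with the same GFP- arrays, so the 5 and the 8 are no independent support. All PAX3-FKHR arrays lay below all GFP- arrays for 13 of the 40 members and for 1831 of all 18193 genes. The collagen class had a mean of 0.10 to 0.66 above the mean of all arrays in GFP- cells, and of 0.09 to 0.48 below it in the GFP+ arrays.

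**Figure D5:**
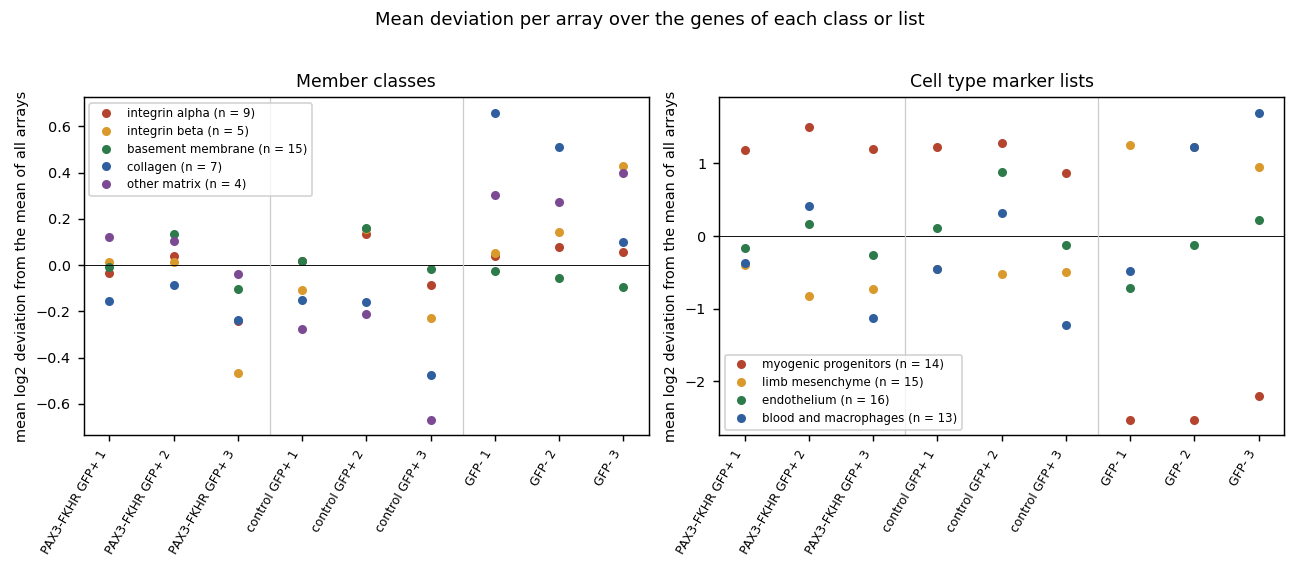
Mean log2 deviation from the mean of all arrays, over the genes of each class of the module (left) and over 4 lists of cell type markers (right), on each of the 9 arrays. Collagens and limb mesenchyme markers lie above 0 on the 3 GFP- arrays and below 0 on the 6 GFP+ arrays, and the other matrix class reaches its lowest value, -0.67, on control GFP+ replicate 3.

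Other genes of integrin adhesion and matrix were read from 8 lists of 160 genes, 145 of them measured. With PAX3-FKHR, 1 was called higher than in control GFP+ cells and 1 lower, where 0.61% and 0.203% of all genes were. The median log2 fold change was -0.02, beside -0.03 over all genes. Col13a1, a membrane-bound collagen found at muscle attachments, was higher (1.66, adjusted p = 0.00509) and was also higher in control GFP+ than in GFP- cells (2.00, adjusted p = 3.85e-04). Tgfbi, a secreted matrix protein that binds integrins, was lower (-1.56, adjusted p = 0.0204).

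Between control GFP+ and GFP- cells, 5 of the 145 were called higher and 22 lower, where 2.79% and 1.93% of all genes were. The median was -0.13, beside 0.08 over all genes. The higher genes were Itga4 (2.41), a fibronectin receptor chain, Postn (2.98), the matrix protein periostin, Col13a1, Timp1 (1.25), an inhibitor of matrix proteases, and Vcl (0.59), the cytoskeletal linker vinculin. Lower genes included 5 other collagens, among them Col9a1 (-1.76) and Col9a3 (-1.10) of cartilage, 3 basement membrane genes (Smoc2, Fbln2 and Frem1, from -0.92 to -1.76) and the surface proteoglycan Gpc3 (-1.23). Of the 13 measured genes that process collagen, 0 were called, with 3 higher and 4 lower at an unadjusted p under 0.05. Over all 18193 genes, 2414 were higher and 1140 lower at that p. In the dystroglycan complex, Dmd, which encodes dystrophin, was called lower in control GFP+ cells (-1.17, adjusted p = 0.0121), and Sgca and Utrn were called higher with PAX3-FKHR than in GFP- cells (1.10 and 0.55).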

How the data were processed

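The authors deposited log2 values per probe set, made with RMA from two-cycle amplified RNA of sorted cells, and the version of RMA is not given in the sources used here. RMA corrects background and equalises the intensity distribution of the arrays, so a shift shared by most genes would be removed. Somite arrays of the study were not analysed here. After 64 array controls were set aside, 45037 probe sets were tested, 34945 of them with 1 gene symbol in the annotation, 932 with more than one and 9160 without one. All 9 arrays entered one fit (limma 3.58.1, R 4.3.3, trend on intensity), and p was adjusted by Benjamini-Hochberg over all probe sets. The code was tested on simulated data. The members and lists were chosen with earlier results of these data known. All called members are named, with values by array for those called with PAX3-FKHR, those the study names and the largest others, and a few further genes (Nid1, Nid2, Itga6, Col6a1 and Itgb3) were described after their values were seen.

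Replicate numbers come from the sample titles. Deviations from the group means correlated between PAX3-FKHR and control GFP+ arrays that share a number (0.164, 0.472 and 0.287), more than with any other number, and a block on the number is given beside this comparison. No source says what equal numbers share, and GFP- arrays did not pair in this way (-0.288 to 0.155). Alternatives were other array scalings, no trend, array weights, blocks, other thresholds, filters and probe set choices, the local pooled error test, and leaving out each array. The fit without control GFP+ replicate 3 and GFP- replicate 3 was chosen after seeing the data. The number of arrays limits the precision.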

Additional observations from a re-analysis of the deposited data

How the results depend on the processing

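The number of members called higher with PAX3-FKHR over control GFP+ cells, 1, became 0 after a second quantile normalization, without the intensity trend, with only the 6 arrays and no replicate block, and in every fit with an array left out (range 0 to 0). It became 3 with array weights, with the replicate block over 6 arrays, with each gene's mean over its probe sets and with the local pooled error test, and 2 without control GFP+ replicate 3 and GFP- replicate 3. With the replicate block over 9 arrays it stayed at 1, but the gene called was Lama2 and not Npnt. The number lower, 0, became 1 with array weights (Nid2) and 2 with that mean (Nid2 and Lama1). Between control GFP+ and GFP- cells, the number higher, 1, became 4 with array weights, 2 with the replicate block over 9 arrays, 0 with that over 6, 2 without a fold change threshold, 0 with a log2 fold change of at least 1, 0 with that mean, 2 without control GFP+ replicate 3 and GFP- replicate 3, and ranged from 1 to 2 with an array left out. With the local pooled error test it stayed at 1, but the gene called was Npnt and not Itga9. The number lower, 9, became 4 with the replicate block over 6 arrays and 4 with a log2 fold change of at least 1, and ranged from 5 to 7 with an array left out, the lowest without GFP- replicate 1. GFP- arrays do not pair with the others by replicate number, and whether the block values for this comparison reflect a weaker effect was not tested. The counts against GFP- cells with PAX3-FKHR stayed within 1.5 times of 2 and 6 under all alternatives run. No called member changed direction. Over all members, comparisons and alternatives, 2282 results kept their side of the threshold, 44 passed it and 56 no longer did. The cause of these changes was not tested. The share of all genes called under each alternative was not taken. The member counts under the alternatives therefore cannot be set against those of other genes. Filtering at the median of all values kept 23557 probe sets and 34 of the 40 members, so no value is given for the other 6 under that filter.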
